A study of Homo sapiens with 6 samples.

Results

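The genes described here are 36 genes of smooth muscle contraction and of the actin cytoskeleton that serum response factor (SRF) is known to drive and that were listed by name, with earlier results of these data known. Each was read through the probe set that carries its symbol alone and has the highest mean signal, under its current or an older symbol (MRTFB appears as MKL2). This gave 33 measured members among 18417 genes. The only probe set of MRTFA also carries another symbol and was left out, and the actin crosslinkers FLNA and FLNC were not analysed here. Of the members, 13 were classed as smooth muscle genes and the other 20 measured ones as broad, found in most contractile or adherent cells. Some of the 13 are also expressed outside smooth muscle, and the sorting was not tested.

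Transcript levels were measured on Affymetrix Gene 1.0 ST arrays in 3 human cell lines of a stepwise transformation series, with 2 arrays for each line that are described as biological replicates, so that the tests measure the spread between these arrays. BJ cells are normal diploid fibroblasts from human foreskin, with nothing introduced. BJEL cells are immortalized BJ cells that carry the telomerase gene hTERT and the SV40 early region, which encodes the large T and small t antigens, and were grown with G-418 and hygromycin. BJELM cells came from BJEL cells by retroviral transfer of pBabe-MYC-ER, a MYC protein fused to an estrogen receptor domain, and were grown with G-418, hygromycin, puromycin and, without interruption, 4-hydroxytamoxifen (4-OHT). Neither the drugs nor 4-OHT can be told apart from the introduced genes.

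SRF binds a DNA element called the CArG box and takes its strength from cofactors. The myocardin-related factors MRTFA and MRTFB are held in the cytoplasm by monomeric actin and enter the nucleus when actin polymerizes, so that tension on the cell raises the genes of the contractile machinery, whereas the ternary complex factors direct SRF to immediate-early growth genes. Myocardin (MYOCD) is the cofactor known mainly from cardiac and smooth muscle, although the BJ fibroblasts also gave a MYOCD signal above the median gene. Fibroblasts switch on part of the same programme, with ACTA2 as its best known product, when they become myofibroblasts.

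The sequences below show the CArG box in members that were picked because a promoter window holds it. They are the 120 bases before a listed transcription start of 5 members, from the RefSeq promoter windows of GRCh38.p14. Each reads 5′ to 3′ on the strand of the gene, with each CArG box in capitals. SRF lies on the plus strand at chr6:43171149-43171268, ACTG2 on the plus strand at chr2:73892888-73893007, CNN2 on the plus strand at chr19:1026488-1026607, MYLK on the minus strand at chr3:123620549-123620668 and FHL2 on the minus strand at chr2:105438514-105438633.
SRF: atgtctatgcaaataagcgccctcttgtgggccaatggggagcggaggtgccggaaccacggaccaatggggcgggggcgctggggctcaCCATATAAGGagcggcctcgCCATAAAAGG
ACTG2: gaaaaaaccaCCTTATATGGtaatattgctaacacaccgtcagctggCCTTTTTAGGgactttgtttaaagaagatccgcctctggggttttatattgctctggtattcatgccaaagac
CNN2: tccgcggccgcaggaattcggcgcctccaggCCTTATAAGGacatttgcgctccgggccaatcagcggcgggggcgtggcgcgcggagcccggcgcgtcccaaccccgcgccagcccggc
MYLK: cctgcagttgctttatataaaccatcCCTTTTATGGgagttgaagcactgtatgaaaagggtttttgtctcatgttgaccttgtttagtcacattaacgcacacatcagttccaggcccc
FHL2: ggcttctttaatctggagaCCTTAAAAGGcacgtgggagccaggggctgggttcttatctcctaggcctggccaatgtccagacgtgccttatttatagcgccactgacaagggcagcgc
The SRF gene itself carries 2 boxes, at positions -30 to -21 and -10 to -1 from its start. ACTG2 also carries 2, while the MYLK and CNN2 stretches hold 1 each. The MYLK stretch precedes the only start listed for that gene. Which MYLK transcript begins there, and whether it encodes the kinase, was not tested.

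The CArG box was searched as CC, then 6 letters that are each A or T, then GG, a pattern that reads as a CArG box on both strands and overlaps no other motif searched. Looser forms were not searched, so a window without this exact pattern may still hold a variant box. An ACTA2 window holds CCCTATATGG, with a C in the run of A and T, and was counted as having no box. Of the 31 members with a RefSeq window of 300 bases, from 250 before the start to 50 after it, 12 (38.7%) held a box in at least 1 window, against 438 of 27305 genes (1.6%) in the whole table and 242 of 14237 (1.7%) of the genes tested here. Counted by window, the shares were 20% of 70 member windows and 1.29% of 35116. The 12 genes are SRF, FHL2, TGFB1I1, ACTG2, CNN2, TPM4, SMTN, MYLK, ACTN1, FLNA, LPP and SVIL, so 3 of 8 genes with a window among the smooth muscle ones and 9 of 23 among the broad ones. TAGLN, MYOCD, MYH11, MYL9 and DES had no window in the table. The list was drawn up around SRF, so the high share describes the list and is not a result of the arrays.

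**Figure D1:**
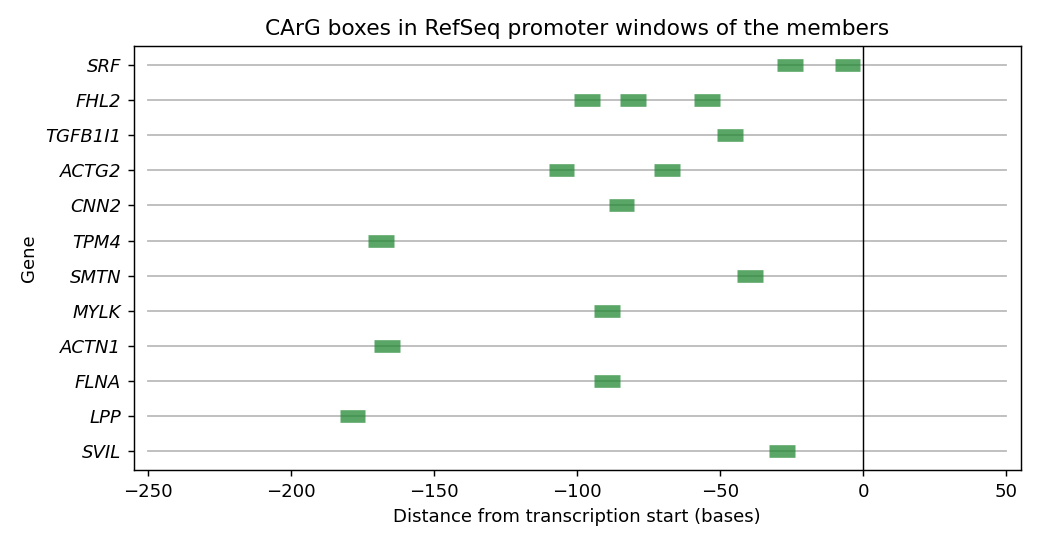
Position of CArG boxes (green bars, 10 bases each) in the promoter windows of the 12 members that hold one, against the distance in bases from the transcription start (vertical line). All boxes lie before the start, from position -183 in LPP to position -1 in SRF; a gene with several starts is drawn on 1 line, and the FHL2 bars that begin at -101 and -85 are the same box measured from 2 starts.

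Before the members are compared, 3 properties of the arrays bear on them. Replicate 1 gave the higher signal in 32 of 33 members in BJ (median difference 0.26 on the log2 scale) and in 27 of 33 in BJELM (median 0.17), but in 16 of 33 in BJEL, where over all genes the shares were 58.3%, 57.9% and 51.7%. The members thus moved together between the replicates of BJ and of BJELM, but not of BJEL. Within BJ the widest gaps were those of ACTA2, ACTG2 and LMOD1, and within BJELM those of ACTA2, MYOCD and TAGLN. Member calls that 1 array decides are given below without that array. TERT, which was introduced at the first step, rose from 7.77 and 7.88 in BJ to 10.71 and 10.97 in BJEL (3.02 ± 0.11 SE, limma adjusted p = 0.000156) and was 10.84 and 10.78 on the arrays labelled BJELM. MYC gave 9.47 and 9.61 in BJ, 10.22 and 10.12 in BJEL, and 9.57 and 8.90 on the arrays labelled BJELM, 0.93 lower than in BJEL (adjusted p = 0.0444). The MYC signal thus goes against the label of the line that received MYC-ER. The study also measured MYC by RT-qPCR, and reported from a western blot that MYC-ER protein was overexpressed at the tumorigenic step. Neither measurement was examined here. Whether this probe set reads the introduced gene was not tested, and the line is called by its label throughout.

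**Figure D2:**
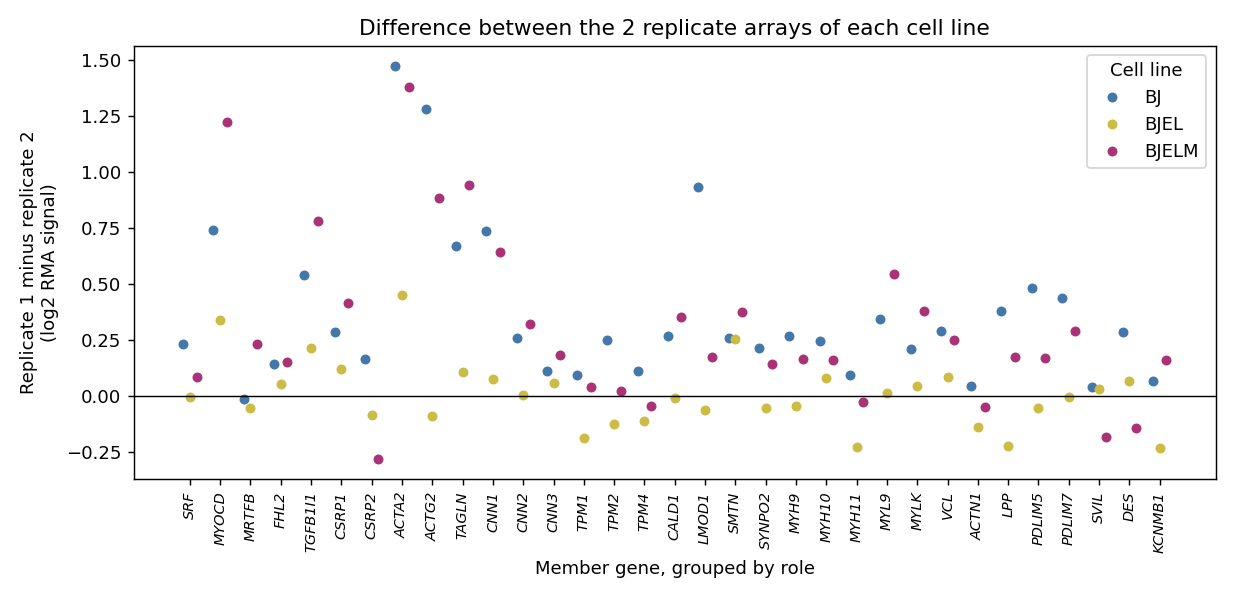
Difference between replicate 1 and replicate 2 (log2 RMA signal) for each of the 33 measured members, with 1 point per cell line and members in the order of their roles. Points of BJ lie above 0 for 32 members, those of BJELM for 27 and those of BJEL for 16.

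A gene was said to have risen or fallen where the limma adjusted p over all 18417 genes was under 0.05 and the change at least 2-fold. In BJEL relative to BJ, 6 of 33 members fell (MYOCD, ACTA2, CALD1, LMOD1, SYNPO2 and MYLK) and 1 rose (ACTG2), where 2.29% of all genes fell and 2.89% rose. Without the fold minimum, 9 members were lower (7.13% of all genes), TPM2, PDLIM7 and SVIL being added. The member median was -0.33 on the log2 scale against -0.02 over all genes. The groups did not overlap in 27 members, 23 of them lower (32.0% of all genes) and 4 higher (29.2%).

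On the arrays labelled BJELM, 10 members fell relative to BJ and 0 rose, where 4.70% of all genes fell and 4.09% rose. MYOCD, CALD1, LMOD1, SYNPO2 and MYLK, which had also fallen in BJEL, were joined by FHL2, TGFB1I1, CSRP1, TAGLN and MYL9. Without the fold minimum, 20 members were lower (13.1% of all genes) and none was higher, although 7 had a higher mean. The member median was -0.67 against 0.01 over all genes. The groups did not overlap in 22 members that were lower (28.8% of all genes) and 2 that were higher (31.7%). These BJEL and BJELM counts share the same 2 BJ arrays. At an unadjusted p under 0.05 limma gave 20 members in BJEL relative to BJ (30.6% of all genes) and 23 here (37.3%).

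Set directly against BJEL, the arrays labelled BJELM showed 1 member that fell, MYLK, and 0 that rose, where 1.76% of all genes fell and 0.923% rose, and 15 members had an unadjusted limma p under 0.05 (25.4% of all genes). FHL2, CSRP1, TPM1 and TPM4 were lower at an adjusted p under 0.05 but by less than 2-fold, which made 5 members with MYLK (6.28% of all genes), and SVIL was higher. Groups without overlap numbered 19 lower (24.0% of all genes) and 4 higher (28.8%), and the member median was -0.23 against 0.03. In 20 members the mean was lower in BJEL than in BJ and lower again in BJELM, an order that was not counted over all genes. At the second step limma gave an adjusted p under 0.05 for 5 of those 20, MYLK, FHL2, CSRP1, TPM1 and TPM4, and only MYLK also reached 2-fold.

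**Figure D3:**
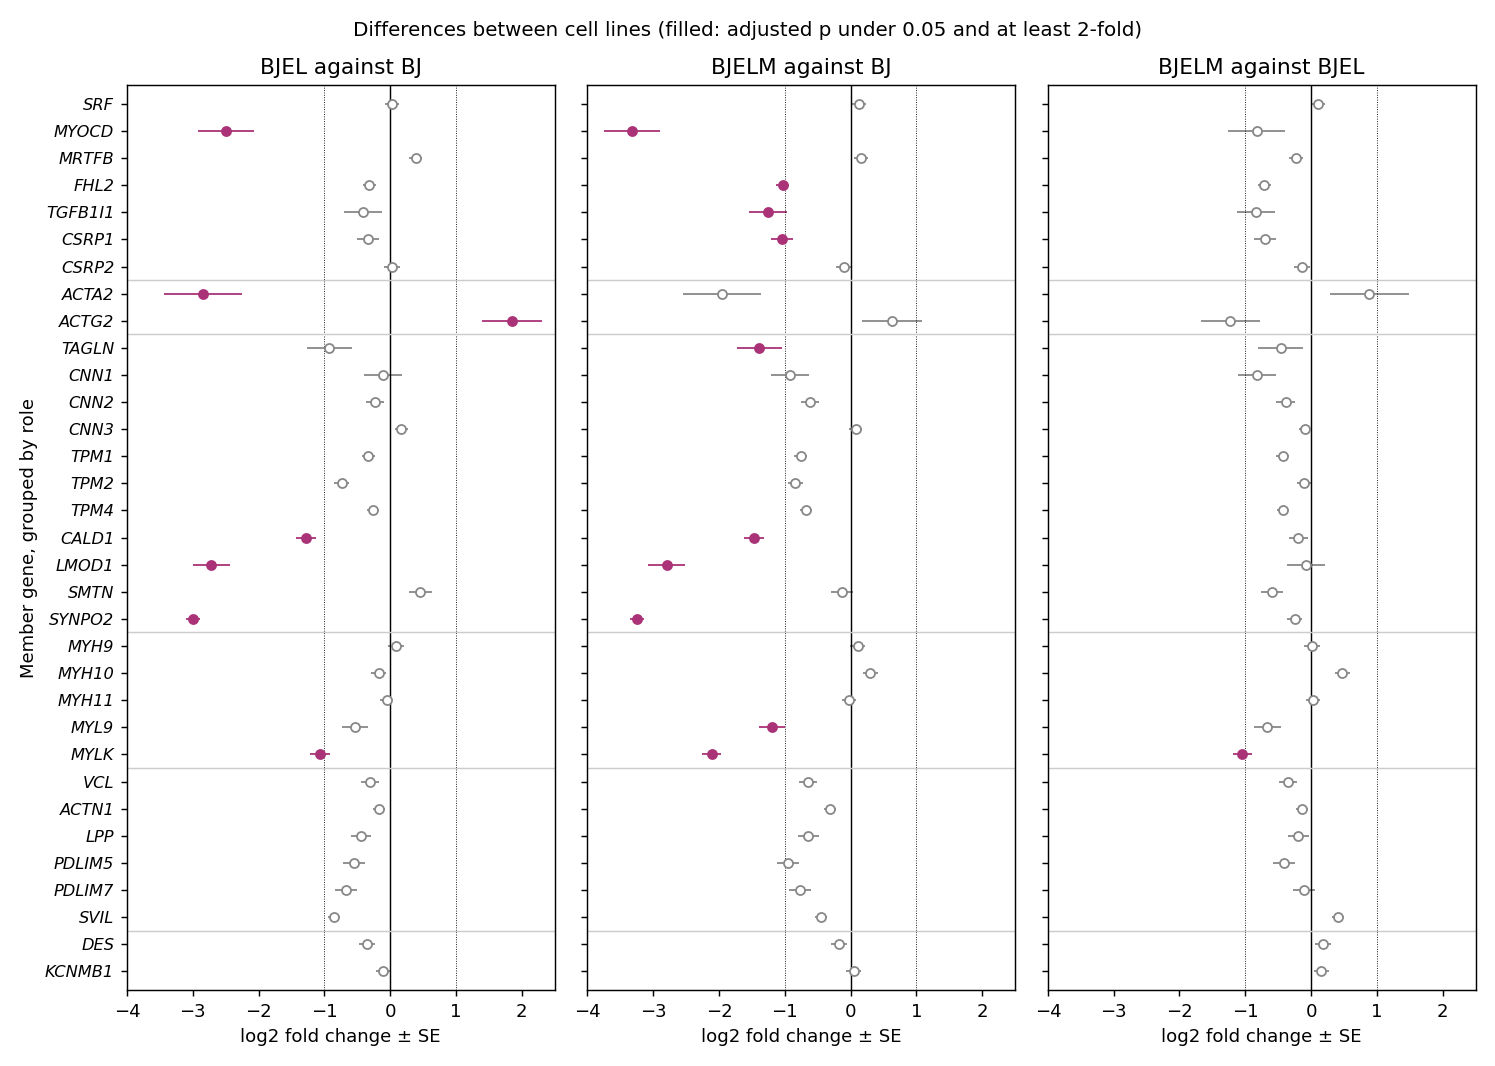
Log2 fold change ± SE from limma for each measured member in the 3 comparisons, members grouped by role with grey lines between roles. Filled points are called (adjusted p under 0.05 and at least 2-fold, dotted lines at a log2 change of 1 in either direction): 7 in the left panel, 10 in the middle and 1 on the right, with ACTG2 the only filled point above 0.

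Among the transcription factors and cofactors, myocardin had the largest differences from BJ. MYOCD gave 10.59 and 9.84 in BJ, 7.90 and 7.56 in BJEL, and 7.51 and 6.29 on the arrays labelled BJELM, on the log2 scale used throughout. No BJEL or BJELM array came near those of BJ. MYOCD fell in BJEL (-2.49 ± 0.43, 5.61-fold, adjusted p = 0.0125) and in BJELM (-3.32 ± 0.43, 9.96-fold, adjusted p = 0.00261). With BJ replicate 1 left out the BJEL value was -2.12 (adjusted p = 0.0737), with the first BJEL array left out -2.66 (adjusted p = 0.0594) and with the second -2.32 (adjusted p = 0.0669), so each of these arrays decided that call, while the call in BJELM held without any 1 array.

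SRF, the DNA-binding partner, differed little between the lines. Its signal was 10.51 and 10.28 in BJ, 10.42 and 10.42 in BJEL, and 10.57 and 10.48 in BJELM. BJEL and BJELM both overlapped BJ, with differences of 0.02 ± 0.11 (adjusted p = 0.916) and 0.13 ± 0.11 (adjusted p = 0.464). MRTFB, the actin-sensing cofactor, gave 8.34 and 8.35 in BJ, 8.70 and 8.75 in BJEL, and 8.62 and 8.39 in BJELM. Both BJEL arrays lay above both BJ arrays, by 0.39 ± 0.10 (adjusted p = 0.0513), which missed the threshold.

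The LIM-domain cofactors FHL2, TGFB1I1 and CSRP1 were called only in the comparison of the arrays labelled BJELM with BJ. FHL2, which binds SRF and integrins, gave 10.00 and 9.86 in BJ, 9.64 and 9.58 in BJEL, and 8.98 and 8.82 in BJELM. TGFB1I1 (Hic-5), a focal adhesion protein that also acts as a nuclear coactivator, gave 10.83 and 10.29, then 10.25 and 10.04, then 9.70 and 8.92. CSRP1, which bridges SRF and GATA factors in smooth muscle and binds alpha-actinin, gave 12.67 and 12.39, then 12.25 and 12.13, then 11.69 and 11.28. In all 3 genes the BJ, BJEL and BJELM arrays formed 3 levels without overlap.

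In BJEL relative to BJ none of these 3 genes was called, with values of -0.32 to -0.42. In BJELM relative to BJ, FHL2 fell by 1.03 ± 0.10 (adjusted p = 0.00102), TGFB1I1 by 1.25 ± 0.29 (adjusted p = 0.0213) and CSRP1 by 1.04 ± 0.17 (adjusted p = 0.00569). Each of these calls stood close to the 2-fold line: without BJ replicate 1 or BJELM replicate 2 FHL2 was -0.96 or -0.95 and CSRP1 -0.90 or -0.84, all under 2-fold, while TGFB1I1 was -0.99 (adjusted p = 0.113) or -0.86 (adjusted p = 0.0569). CSRP2, the paralog of CSRP1, stayed between 9.08 and 9.40 on all 6 arrays, with differences from BJ of 0.03 and -0.10.

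The pair of smooth muscle actins moved in opposite directions at the first step. ACTA2, the alpha actin of vascular smooth muscle and myofibroblasts, gave 12.46 and 10.98 in BJ, 9.10 and 8.65 in BJEL, and 10.46 and 9.07 in BJELM. Its arrays did not overlap between BJ and BJEL, and it fell by 2.84 ± 0.60 (7.18-fold, adjusted p = 0.024). On the arrays labelled BJELM it lay 1.96 ± 0.60 below BJ (adjusted p = 0.0557) and 0.89 above BJEL with overlapping arrays (adjusted p = 0.429).

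ACTG2, the gamma actin of visceral smooth muscle, was the only member that rose. It gave 9.53 and 8.25 in BJ, 10.70 and 10.79 in BJEL, and 9.96 and 9.08 in BJELM. Both BJEL arrays stood above every other array, 1.85 ± 0.45 above BJ (3.62-fold, adjusted p = 0.0388), whereas BJELM overlapped BJ (0.63, adjusted p = 0.4) and lay 1.23 ± 0.45 below BJEL without a call (adjusted p = 0.156). ACTA2 and ACTG2 had the widest gaps between the BJ replicates of any member, and both BJEL calls depended on single arrays. For ACTA2 the value was -2.11 (adjusted p = 0.102) once BJ replicate 1 was dropped, and the adjusted p was 0.0907 and 0.108 once either BJEL array was. For ACTG2 it was 1.21 (adjusted p = 0.102) once BJ replicate 2 was dropped, and the adjusted p was 0.147 and 0.138 once either BJEL array was. The ACTA2 difference between BJELM and BJ was called without BJ replicate 2 (adjusted p = 0.0282) or BJELM replicate 1 (adjusted p = 0.027). Coding sequences of actin genes are nearly identical, and reads of one actin by the probes of another were not tested.

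The other actins give a frame for this pair. ACTC1, cardiac alpha actin, followed ACTA2 with 10.12 and 8.63 in BJ, 7.06 and 6.76 in BJEL, and 6.77 and 6.56 in BJELM, and fell in both (-2.46, adjusted p = 0.0148, and -2.71, adjusted p = 0.00623), the BJEL call being lost with either BJEL array left out (adjusted p = 0.0687 and 0.0749). The cytoplasmic actins ACTB and ACTG1, the skeletal ACTA1 and ACTBL2 were not called in any comparison, with differences from BJ of -0.28 to 0.07. Opposite signs within the actin family were thus limited, among called genes, to ACTG2 against ACTA2 and ACTC1.

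**Figure D4:**
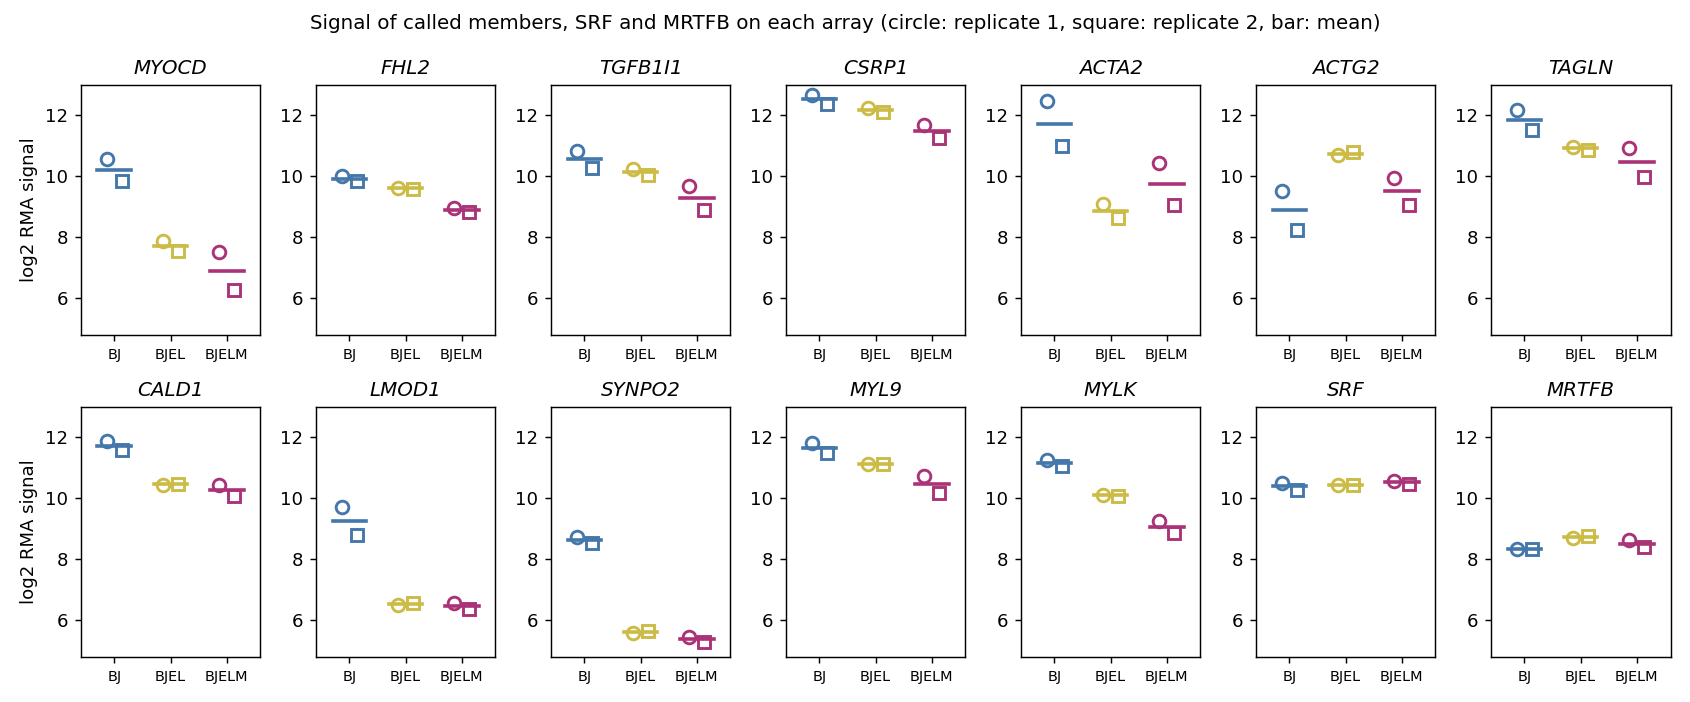
Log2 RMA signal on each array for the 12 members called in at least 1 comparison and for SRF and MRTFB, by cell line; circles are replicate 1, squares replicate 2 and bars the mean of both. SYNPO2, LMOD1 and CALD1 dropped at the first step and stayed low, FHL2, CSRP1, MYL9 and MYLK formed 3 descending levels, ACTG2 stood highest in BJEL, and SRF lay between 10.28 and 10.57 on all arrays.

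Of the 11 proteins that bind actin filaments and tune contraction, SYNPO2, LMOD1 and CALD1 fell at the first step and held their calls whichever array was left out. SYNPO2 (myopodin), which bundles actin at the Z-disc and dense bodies, gave 8.73 and 8.52 in BJ, 5.60 and 5.65 in BJEL, and 5.44 and 5.30 in BJELM. BJ stood apart from BJEL and BJELM, and SYNPO2 fell in BJEL (8.01-fold, adjusted p = 0.000156) and in BJELM (-3.25 ± 0.11, 9.53-fold, adjusted p = 6.6e-05). BJELM and BJEL differed by -0.25 (adjusted p = 0.216). Both lay under the signal of 6 used as a floor in one alternative, and no measure of background came with the signals, so these folds compare signals and may fall short of the change in transcript.

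LMOD1 (leiomodin), which nucleates actin filaments in smooth muscle, gave 9.73 and 8.79 in BJ, 6.51 and 6.57 in BJEL, and 6.55 and 6.38 in BJELM. It fell in both (-2.72 ± 0.28, 6.59-fold, adjusted p = 0.00246, and -2.80 ± 0.28, 6.94-fold, adjusted p = 0.00117), and BJELM overlapped BJEL. CALD1 (caldesmon), which holds back myosin on actin until calcium rises, gave 11.86 and 11.59, then 10.45 and 10.45, then 10.44 and 10.08. Its differences from BJ were -1.28 ± 0.15 (2.42-fold, adjusted p = 0.00346) and -1.47 ± 0.15 (2.76-fold, adjusted p = 0.00119).

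TAGLN (SM22 alpha), an actin-crosslinking protein and early marker of smooth muscle, gave 12.18 and 11.51 in BJ, 10.98 and 10.87 in BJEL, and 10.93 and 9.99 in BJELM. BJEL and BJELM both lay below BJ and overlapped each other. Relative to BJ the difference was -0.92 in BJEL (adjusted p = 0.126), and in BJELM TAGLN fell by 1.39 ± 0.34 (2.61-fold, adjusted p = 0.0267). That call was lost without BJ replicate 1 (-1.05, adjusted p = 0.136) or BJELM replicate 2 (-0.92, adjusted p = 0.0699), and without either BJEL array, which changes only the estimate of the spread (adjusted p = 0.0506).

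The calponins, which bind actin and slow the myosin ATPase, did not share a pattern. CNN1, the smooth muscle form, gave 10.70 and 9.96 in BJ, 10.26 and 10.18 in BJEL, and 9.73 and 9.08 in BJELM, with differences from BJ of -0.11 (adjusted p = 0.856) and -0.92 (adjusted p = 0.0618). CNN2, the form of many cell types, was 0.62 lower in BJELM than in BJ (adjusted p = 0.0213) without reaching 2-fold. CNN3, the acidic calponin, stayed between 11.18 and 11.43 on all arrays.

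Tropomyosins lie along the actin filament and set which proteins may bind it, and all 3 measured ones were lower in BJELM than in BJ by less than 2-fold. TPM1 gave -0.76 (adjusted p = 0.00271), TPM2 -0.84 (adjusted p = 0.00287) and TPM4 -0.67 (adjusted p = 0.00305). TPM2 had most of its difference at the first step (-0.74 in BJEL relative to BJ, adjusted p = 0.00808), whereas TPM1 and TPM4 differed between BJELM and BJEL (-0.43, adjusted p = 0.0462, and -0.42, adjusted p = 0.0382). A second TPM4 probe set gave -0.37 in BJEL and -0.15 in BJELM relative to BJ, and thus disagreed on the second step (0.22). SMTN (smoothelin), a marker of contractile smooth muscle, showed 0.46 in BJEL (adjusted p = 0.123) and -0.13 in BJELM relative to BJ.

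Myosin genes separated into the heavy chains, which were not called, and the regulatory chain and its kinase, which were. MYLK, the kinase that phosphorylates the regulatory light chain and so starts contraction, gave 11.26 and 11.05 in BJ, 10.11 and 10.07 in BJEL, and 9.24 and 8.86 in BJELM. The 3 lines formed 3 levels with gaps wider than the distance between replicates. MYLK fell by 1.07 ± 0.15 (2.09-fold, adjusted p = 0.00586) from BJ to BJEL, by 2.11 ± 0.15 (4.31-fold, adjusted p = 0.000389) from BJ to BJELM, and by 1.04 ± 0.15 (2.06-fold, adjusted p = 0.011) from BJEL to BJELM. Both single steps stood near 2-fold: the first was -0.96 without BJ replicate 1, and the second was -0.85 without BJELM replicate 2 and missed the threshold with either BJEL array left out (adjusted p = 0.0722 and 0.056).

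MYL9, the regulatory light chain that MYLK phosphorylates, gave 11.81 and 11.47 in BJ, 11.12 and 11.11 in BJEL, and 10.73 and 10.18 in BJELM. No 2 lines overlapped, and MYL9 fell by 1.19 ± 0.20 (2.28-fold, adjusted p = 0.00672) in BJELM, or -0.92 without BJELM replicate 2. Its difference in BJEL was -0.53 (adjusted p = 0.134). Among the heavy chains, MYH9 and MYH10, which form the nonmuscle myosins IIA and IIB, gave differences from BJ of 0.09 and 0.11 and of -0.17 and 0.30, none past the threshold. MYH11, the smooth muscle heavy chain, stayed between 5.53 and 5.76 on all 6 arrays, under the median gene signal of 7.26.

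Adhesion and crosslinking proteins connect these filaments to integrins and to each other, and relative to BJ all of their differences were negative and under 2-fold. All 6 measured ones were lower in BJELM than in BJ at an adjusted p under 0.05, by 0.31 to 0.95, and 0 were called for lack of a 2-fold change. PDLIM5 (-0.95, adjusted p = 0.00774) and PDLIM7 (-0.77, adjusted p = 0.018) are PDZ and LIM adaptors of the actin bundle. VCL (vinculin, -0.65, adjusted p = 0.015) and LPP (-0.64, adjusted p = 0.0255) sit at focal adhesions, and ACTN1 (alpha-actinin, -0.31, adjusted p = 0.0469) crosslinks filaments there.

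SVIL (supervillin), which ties actin and myosin II to the membrane, had its lowest signal in BJEL. It gave 7.12 and 7.08 in BJ, 6.26 and 6.23 in BJEL, and 6.56 and 6.75 in BJELM. BJELM thus lay between the other lines without overlap. The difference was -0.85 ± 0.09 in BJEL relative to BJ (adjusted p = 0.00302) and 0.41 in BJELM relative to BJEL (adjusted p = 0.0466), both under 2-fold. DES (desmin), the muscle intermediate filament, and KCNMB1, the smooth muscle subunit of the BK potassium channel, stayed at 6.76 to 7.29 and 4.88 to 5.24 and were not called.

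Split by class, the 13 smooth muscle members had a median difference of -0.53 in BJEL and -1.19 in BJELM relative to BJ, and the 20 broad members -0.31 and -0.65. In BJEL 5 smooth muscle members fell and 1 rose, against 1 broad member that fell, where 2.29% of all genes fell and 2.89% rose. In BJELM 6 and 4 fell (4.70% of all genes). MYH11, DES and KCNMB1, all in the smooth muscle group, gave the low signals just described in every line, BJ included. TAGLN, MYL9, MYLK and MYOCD of the same group had means of 11.85, 11.64, 11.16 and 10.22 in BJ fibroblasts. These lie above the median gene signal of 7.26, so the class does not mean absence from fibroblasts. The signal of a cell population cannot tell fewer cells that express a gene from less RNA per cell.

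The 11 measured members with a CArG box in a window had median differences of -0.25 in BJEL and -0.61 in BJELM relative to BJ, and 4 were called in at least 1 comparison (FHL2, TGFB1I1, ACTG2 and MYLK). For the 17 with a window but no box of the exact pattern, ACTA2 among them, the medians were -0.33 and -0.77 and 5 were called. For the 5 without a window they were -0.53 and -1.19, with 3 called. These are descriptions of 33 genes, without a test. The share of all genes called in at least 1 comparison was not counted. Boxes were not matched to the transcript that each probe set reads.

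Around the members, genes of the same pathway were read from lists. Over all genes, 2.29% fell and 2.89% rose in BJEL relative to BJ, and 4.70% fell and 4.09% rose in BJELM. Of 27 other cytoskeletal targets of SRF and the MRTFs, 1 rose and 1 fell in BJEL and 5 fell in BJELM relative to BJ, with medians of -0.26 and -0.46. TES (testin), a LIM protein of focal adhesions, fell in both (-1.33, adjusted p = 0.0398, and -3.38, adjusted p = 0.00103), and also between BJEL and BJELM (-2.05, adjusted p = 0.0154). Its BJEL call was lost without any 1 of the BJ or BJEL arrays (adjusted p = 0.0777 to 0.195), and its call at the second step without either BJEL array (adjusted p = 0.0979 and 0.0634). The gene that rose in BJEL, TUFT1, was likewise called only with all of these arrays. CRIM1 (-1.49), AFAP1 (-1.22) and MICAL2 (-1.12), the last an enzyme that oxidizes actin, fell in BJELM as well. Of the 11 measured immediate-early genes on the ternary complex side of SRF, 0 were called in BJEL (limma, 6 at an unadjusted p under 0.05) and 2 fell in BJELM, EGR1 by 1.10 (adjusted p = 0.00696) and JUNB by 1.03 (adjusted p = 0.00828). Without BJ replicate 1 they were -0.88 and -0.83, both under 2-fold. EGR1 also fell between BJEL and BJELM (-1.37, limma adjusted p = 0.00969), the only 1 of the 11 called there, where 1.76% of all genes fell. That call was lost without BJEL replicate 1, where the value was -1.19.

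No call was made by limma among the 14 measured ternary complex factors and other regulators of the SRF axis, of which 4, 7 and 4 had an unadjusted p under 0.05 in the first step, in both steps together and in the second step. Focal adhesion plaque genes numbered 16, of which 3 fell in BJEL and 4 in BJELM, led by the tensins TNS1 (-2.44 and -2.41), TNS2 (-1.27 and -1.70) and TNS3 (-1.02 and -1.94). The TNS3 value in BJEL was -0.93 without BJ replicate 1 and -0.94 without BJEL replicate 2, both under 2-fold.

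Markers of cell types moved beside the members. Fibroblast markers, the labelled cell type, fell for 10 of 18 genes in BJEL and 13 of 18 in BJELM relative to BJ. Over all genes 2.29% and 4.70% fell. With single arrays left out, the calls of COL1A2 and DCN in BJEL and of COL3A1 and PRRX1 in BJELM were lost. The summed signal of the 18 was 15.73 to 15.83 in BJ, 14.74 to 14.77 in BJEL and 14.54 to 14.84 in BJELM. VIM, the mesenchymal intermediate filament, was at -0.12 and -0.11. Of 8 pericyte markers, 2 and 4 fell. Without BJ replicate 1 NOTCH3 in BJELM was -0.96, under 2-fold. The summed signal of the 8 was 11.83 to 12.08, 11.09 to 11.09 and 10.50 to 10.86. The part of either shift in the members' differences was not tested. Skeletal and cardiac muscle markers gave 0 limma calls among 21 genes in each comparison (2, 0 and 2 at an unadjusted p under 0.05), with 18 of 21 under the median gene signal in every line and a summed signal of 10.72 to 10.74 in BJ, 10.55 to 10.63 in BJEL and 10.67 to 10.72 in BJELM. Endothelial markers were under that median for 8 of 8 genes in every line.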

How the data were processed

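Log2 signals of 33297 probe sets on 6 arrays were deposited, made by the authors with RMA (background correction, quantile normalization and summary of probes into 1 value). The submitters' processing notes name Affymetrix Expression Console 1.3.1 for this step. A build for the probe annotation is not given in the sources used here. An array has no count depth, so the number of arrays limits the precision. Within a line the arrays correlated at 0.992 to 0.995.

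Probe sets were named from a platform table: 19460 carried 1 symbol, 1754 several and 12083 were not listed. Taking for each gene its brightest probe set with a single symbol gave 18417 genes, of which 18389 matched RefSeq (GRCh38.p14) by Entrez ID. No filter on low signal was applied. Differences came from limma 3.58.1 in R 4.3.3, with 6 arrays in 1 fit, a mean per line, no replicate block, two-sided tests and Benjamini-Hochberg adjustment over all genes (3 residual and 3.13 prior degrees of freedom). The fit was tested on simulated data. Alternatives were single arrays left out, a replicate block, other scaling, filters, probe set rules and thresholds, and a plain t-test for unequal variances. Leaving out arrays for the context lists was added after seeing the data. CArG boxes were searched in RefSeq promoter windows.

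The members and the 14 context lists were chosen with earlier results of these data known. All members are accounted for, with every array for called members and for SRF and its cofactors, and up to 4 called genes of a context list are named. Of these lists, 1 is not reported here. The study's chromatin and genotype measurements were left aside.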

Additional observations from a re-analysis of the deposited data

How the results depend on the processing

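With quantile normalization or median centring the same 7 members were called in BJEL relative to BJ, 11 and 10 in BJELM relative to BJ (10 in the fit as reported) and 1 in BJELM relative to BJEL. The added member was ACTA2 under quantile normalization (adjusted p = 0.0488), which limma also called with an intensity trend (adjusted p = 0.0375) or a filter on low signal (adjusted p = 0.0313 and 0.0329). Testing every probe set lost ACTA2 (adjusted p = 0.0596) and ACTG2 (adjusted p = 0.0867) in BJEL and TAGLN (adjusted p = 0.0601) in BJELM, where limma adjusted over more tests. No difference changed sign in a called member. Leaving out 1 array gave 4 to 7, 5 to 13 and 0 to 2 called members in these comparisons. The low counts came without BJ replicate 1 (4 and 6), BJEL replicate 1 or 2 (4 and 4 in BJEL relative to BJ, 0 and 0 in BJELM relative to BJEL) and BJELM replicate 2 (5 and 0). At an adjusted p under 0.01 the counts were 4, 8 and 0, and with no fold minimum 10, 20 and 6. A plain t-test for unequal variances gave 1, 4 and 0 members at an unadjusted p under 0.05 and at least 2-fold. After Benjamini-Hochberg adjustment it gave 0, 0 and 0. The study used a modified form of this test, which was not run here, so these counts are not those of its method.

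The labels give replicates 1 and 2 in every line, but nothing ties a number to a shared culture or day. Deviations of same-numbered arrays correlated at 0.448 to 0.553 over all genes and 0.486 to 0.778 over the members, from only 2 numbers. A fit with a replicate block called 7, 11 and 2 members, adding ACTA2 in BJELM relative to BJ (adjusted p = 0.000515) and ACTG2 in BJELM relative to BJEL (adjusted p = 0.0195). Over single members, 719 values stayed on their side of the threshold, 65 lost a call and 11 gained one. With 2 arrays per line, changes under 2-fold and probe sets of low signal such as MYH11 and KCNMB1 are poorly resolved.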

Other observations

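Other markers of smooth muscle that are not members gave 8 falls and 2 rises among 28 genes both in BJEL and in BJELM relative to BJ. With single arrays left out, 5 to 8 and 5 to 9 fell, the lowest counts coming without BJEL replicate 1 and without BJ replicate 1. CRYAB, a small heat shock protein abundant in muscle, fell in both (-5.46, limma adjusted p = 4.06e-05, and -6.33, adjusted p = 1.49e-05), from 11.14 on both BJ arrays to 5.61 and 5.75 in BJEL and 4.72 and 4.91 in BJELM, signals so low that these differences may fall short of the change in transcript. IRAG1, a target of cGMP-dependent kinase in smooth muscle, fell in both (-2.44 and -2.52). AGTR1, the angiotensin II receptor that makes vascular muscle contract, rose by 2.48 and 1.82, with 6.43 and 6.23 in BJ, 8.72 and 8.90 in BJEL, and 8.24 and 8.07 in BJELM. PRUNE2 also rose, by 1.85 and 1.77. In BJELM relative to BJEL limma called 0 of these 28 genes, 5 having an unadjusted p under 0.05.

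Among the markers of the remaining cell types, KRT19, a simple keratin, fell by 1.65 in BJELM relative to BJ as the only 1 of 8 epithelial markers called, and it missed the threshold with BJ replicate 1 (adjusted p = 0.102) or BJELM replicate 2 (adjusted p = 0.0677) left out. CD68, a lysosomal protein used as a macrophage marker, fell by 1.04 (-0.96 without BJ replicate 2, under 2-fold) and was the only 1 of 7 leukocyte markers called. MITF, the melanocyte factor, fell by 1.68 and was the only 1 of 5 melanocyte markers.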
